A study of Mus musculus with 8 samples.

Results

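The kinases of the mitogen-activated protein (MAP) kinase cascade were examined in whole mouse lung, on 8 Affymetrix arrays that measure RNA by probe sets. Members were all probe sets whose only gene symbol starts with Mapk, Map2k, Map3k or Map4k followed directly by a number. Of 12422 probe sets without controls, 41 met this rule, and they stood for 26 of the 8251 genes with such a probe set. Proteins that bind these kinases or are activated by them, such as Mapkapk2, were left out.

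MAP kinase signalling runs through tiers of protein kinases that activate each other in turn. Map4k and Map3k enzymes receive signals from receptors or from stress, Map2k enzymes pass them on, and the MAP kinases at the end phosphorylate transcription factors and other kinases. The main branches end in the ERK kinases, which serve growth signals, the JNK and p38 kinases, which serve stress and inflammation, and ERK5, the product of Mapk7, which is needed for the integrity of blood vessels. Glucocorticoids are known to dampen the JNK and p38 branches in many tissues, in part by inducing the phosphatase Dusp1.

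Per the labels, mice aged 3 days received oil or retinoic acid, and on day 4 part of each set received saline and the rest dexamethasone, a synthetic glucocorticoid. The groups, named as in the sample titles, were Dex, RA, RA-Dex and Dil, with 2 arrays each, lettered a and b. Dil is not defined in the labels and was taken as oil followed by saline, the only arm left. Retinoic acid is known to promote the subdivision of the air sacs after birth and glucocorticoids to stop it, and the series title names both the inhibition and the protection of this process. The sources used here give no strain, dose or time of collection. They also do not say if arrays a and b came from different mice, from pooled lungs or from 1 RNA, so the p-values below reflect the spread between arrays, which may be technical.

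The arrays were alike in scale, with median signals of 317 to 343 and a correlation of log2 signals between the arrays of a group of 0.964 to 0.975. Lung markers were present on every array, with the surfactant gene Sftpc at a signal of 61592 or more. All 6 tested genes of a list known to respond to glucocorticoids, Fkbp5 and Zbtb16 among them, rose in the 4 dexamethasone arrays. Skeletal muscle markers were highest in Dil. The summed signal of the 15 on the array was 8935 and 9437 there and 4982 to 6352 elsewhere. Both Dil arrays were above all others for 5 of the 15, a pattern whose share over all probe sets was not counted. The summed signal of 9 heart muscle markers was also highest in Dil, and lowest in Dex. It was 27313 and 28192 in Dil, 18771 and 19409 in Dex, and 22569 to 23444 elsewhere. Both Dil arrays were above all others for 5 of these 9, Myh6 and Myh7 not among them, a share again not counted over all probe sets. B lymphocyte markers were lower with dexamethasone, the summed signal of 7 being 4738 and 4878 in Dil, 2314 and 2717 in Dex, 4359 and 5015 in RA and 2989 and 3579 in RA-Dex. The summed signal of 11 macrophage markers was lower too, at 18261 to 20069 with dexamethasone and 22518 to 25517 without it. Not each of these markers was lower, as Mrc1 was at 280 to 380 with dexamethasone and 200 to 302 without it. On average over the day 3 treatment, 2 of 8 tested fell, where 3.57% of all tested probe sets did. In whole lung, fewer cells of a type and less RNA per cell cannot be told apart.

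Changes were tested with limma for probe sets whose mean over all arrays was above a signal of 200.8, which left 7309 of all and 23 of the 41 members, standing for 19 genes. The signals of the tested members lay between 107 and 3101. A change was called at an adjusted p under 0.05 over all 7309.

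With dexamethasone, averaged over the day 3 treatment, Map3k6 rose 5.9-fold and Mapk7 fell to 0.473 of its level, while the other 21 tested members did not pass. These 2 calls among 23 members (8.7%) compare with 7.83% of all tested probe sets. Rises made up 4.26% and falls 3.57% of all, and the share called among the kinases was close to that of the whole array. Their median log2 change was -0.01, against -0.03 over all tested probe sets. The 4 dexamethasone arrays did not overlap the 4 others for 3 of the 23 members, above for Map3k6 and below for Map3k4 and Mapk8, where 14.6% of all tested probe sets did not overlap (6.8% above and 7.78% below).

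Map3k6 encodes a kinase also known as ASK2, a close relative and partner of the stress kinase ASK1, which Map3k5 encodes. Its signal was 387 and 315 in Dil, 1974 and 2191 in Dex, 492 and 325 in RA, and 2479 and 2205 in RA-Dex. The lowest dexamethasone array was 4.02 times the highest array without it. The average log2 change was 2.56 ± 0.163 (SE, n = 4 against 4, limma adjusted p = 5.22e-06). Only 11 of the 7309 tested probe sets had a larger rise and 13 a smaller p.

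**Figure D1:**
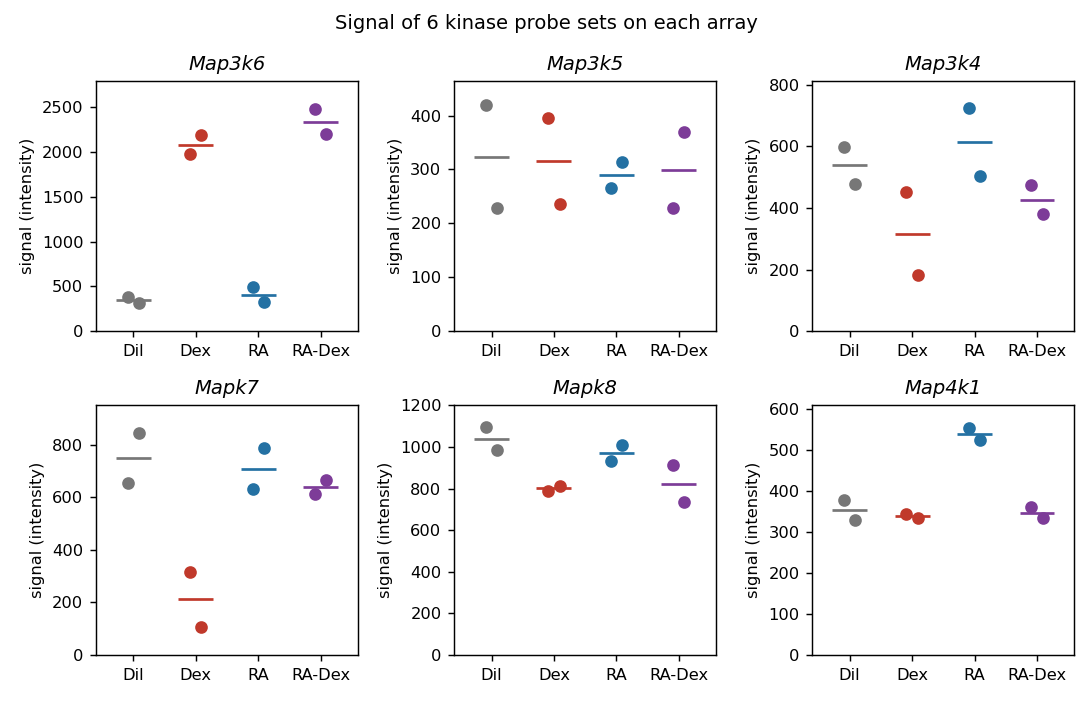
Signal intensity (linear axis from 0) of 6 kinase probe sets on each of the 8 arrays, with points for arrays a and b of each group and a bar at their mean. Map3k6 was at 1974 to 2479 on the dexamethasone arrays and at 315 to 492 on the others, Mapk7 was low in Dex only, and Map4k1 was highest in RA.

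The rise of Map3k6 was of like size with and without retinoic acid. Dex against Dil gave a log2 change of 2.57 ± 0.231 (SE, n = 2 against 2, limma adjusted p = 0.000165), and RA-Dex against RA gave 2.55 ± 0.231 (adjusted p = 0.000197). These comparisons share no arrays. Their difference was -0.03 ± 0.326 (limma adjusted p = 0.998), with a 95% interval of -0.75 to 0.69, so a difference of up to about that size cannot be told from none. Retinoic acid, averaged over the day 4 treatment, gave Map3k6 a log2 difference of 0.18 ± 0.163 (adjusted p = 0.941). Map3k6 stayed called in all 15 alternatives for each of the 3 dexamethasone comparisons.

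Mapk7, the kinase at the end of the ERK5 branch, had signals of 653 and 845 in Dil, 316 and 107 in Dex, 630 and 788 in RA, and 614 and 666 in RA-Dex. It was low in the Dex arrays only, where the summed heart muscle markers were also lowest, whose part in these values was not tested, and the RA-Dex arrays lay within or near the range of RA. Arrays a and b of Dex differed 2.96-fold, the widest gap between replicates among the tested members. In Dex against Dil, Mapk7 fell to 0.247 of its level (log2 change -2.02 ± 0.416, n = 2 against 2, limma adjusted p = 0.0263). The value for RA-Dex against RA was -0.14 ± 0.416 (adjusted p = 0.919). The average change of -1.08 ± 0.294 passed narrowly (adjusted p = 0.0494).

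The difference between those effects on Mapk7, 1.88 ± 0.588 on the log2 scale, did not pass (limma adjusted p = 0.811, unadjusted p = 0.00887). RA-Dex against Dex gave 1.80 ± 0.416 (adjusted p = 0.499). The average call was lost in 11 of 14 alternatives and the call in Dex against Dil in 7 of 14, with log2 changes of -1.47 to -0.69 and of -2.80 to -1.23. Without Dex replicate b, whose signal was the lowest, the average change was -0.69 (adjusted p = 0.0767) and Dex against Dil gave -1.23 (0.0945). With no filter, their adjusted p was 0.292 and 0.27.

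RefSeq promoter sequences (build GRCm38.p6) were held for 23 of the 26 genes. The 250 bases before the annotated start are shown for the genes called, Map3k6 on chr4:133240568-133240817, plus strand, and Mapk7 on chr11:61494262-61494511, minus strand, 5′ to 3′. Capitals would mark a glucocorticoid receptor motif, and neither stretch holds any.
Map3k6: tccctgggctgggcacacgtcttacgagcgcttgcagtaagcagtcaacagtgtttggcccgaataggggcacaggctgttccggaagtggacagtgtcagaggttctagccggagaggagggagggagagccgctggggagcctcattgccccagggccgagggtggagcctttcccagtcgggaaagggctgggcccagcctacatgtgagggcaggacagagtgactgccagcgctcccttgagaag
Mapk7: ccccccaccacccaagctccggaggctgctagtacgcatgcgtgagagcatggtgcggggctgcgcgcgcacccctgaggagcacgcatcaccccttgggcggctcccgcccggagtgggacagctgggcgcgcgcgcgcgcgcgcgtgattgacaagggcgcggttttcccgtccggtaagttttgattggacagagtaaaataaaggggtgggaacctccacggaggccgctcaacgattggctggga

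The motifs searched were the site TGTTCT on either strand, and AGAACA and TGTTCT 3 bases apart with at most 2 mismatches, which contains the first where it matches exactly. The window ran from 250 bases before the start to 50 after it. TGTTCT was in the promoters of 5 of the 23 member genes (21.7%) and of 21.3% of all 27025 genes of the table. The longer motif was in none of the 23 and in 2.1% of all genes. No match says only that these letters are not in this window. The member promoters were rich in G and C, with a median of 62.8% against 52.4% over all promoters.

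In the Map3k tier, 7 of 10 genes were tested, with 9 probe sets, of which Map3k6 alone rose and 0 fell. Map3k5, the nearest relative of Map3k6, had signals of 420 and 228 in Dil, 395 and 236 in Dex, 266 and 314 in RA, and 229 and 369 in RA-Dex. These overlapped fully, and the average log2 change was -0.01 ± 0.294 (limma adjusted p = 0.996; 95% interval -0.65 to 0.64). Its upper end lies below the lower end for Map3k6, 2.20, but the difference between the genes was not tested.

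Map3k4 encodes MEKK4, which Gadd45 proteins bind and activate. Its tested probe set had signals of 598 and 479 in Dil, 451 and 182 in Dex, 725 and 503 in RA, and 475 and 379 in RA-Dex. All 4 dexamethasone arrays were below the 4 others, RA-Dex replicate a by little and Dex replicate b by the most. The average log2 change was -0.71 ± 0.278 (limma adjusted p = 0.168), and did not pass. It was -1.03 without Dex replicate a (adjusted p = 0.0314) and -0.38 without Dex replicate b (adjusted p = 0.434), so its size rests on the latter array.

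The remaining tested Map3k genes had average log2 changes close to 0. They were 0.03 ± 0.178 for Map3k1, 0.07 ± 0.264 for Map3k7, the TAK1 kinase of transforming growth factor and interleukin signals, and -0.02 ± 0.171 for Map3k11, a mixed lineage kinase. Map3k3, a kinase of vascular development upstream of ERK5, had 3 tested probe sets with changes of 0.25, 0.18 and 0.07, of which the second was 0.01 without Dil replicate b and 0.36 without Dil replicate a. In Dex against Dil, the Map3k3 probe sets were at -0.02, -0.07 and -0.09, and in RA-Dex against RA at 0.51, 0.43 and 0.23. Map3k11 was at -0.29 and 0.26 in these comparisons. Map3k7, with signals of 184 to 277 near the filter, was at 0.32 and -0.18. None of these passed.

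In the Map4k tier, both genes were tested. Map4k1, a kinase of blood cells that restrains antigen receptor signals, had signals of 379 and 330 in Dil, 343 and 334 in Dex, 554 and 525 in RA, and 361 and 333 in RA-Dex. Both RA arrays stood above the other 6. The log2 change was 0.61 ± 0.252 in RA against Dil (limma adjusted p = 0.58) and -0.64 ± 0.252 in RA-Dex against RA (adjusted p = 0.242), so neither passed. Among markers of blood cells, the summed signal of 11 macrophage genes, though not each gene, was also highest in RA, at 25458 and 25517 against 18261 to 23889 elsewhere. That of 10 T lymphocyte genes was 1274 and 1483 in RA within a range of 897 to 1788 elsewhere, with Cd3e, Cd8a and Cd2 at or under the floor on every array. B lymphocyte sums were 4359 and 5015 in RA and 4738 and 4878 in Dil. Neutrophil sums were highest in RA-Dex, at 9851 and 11270, with 8983 and 9597 in RA. That order rested on the gene Lcn2, whose RA-Dex signals were 5569 or more, against at most 3089 for the RA arrays. S100a8 and S100a9 were instead highest in RA, at 3150 or more and 942 or more, with at most 2435 and 700 elsewhere. The other neutrophil genes did not have both RA arrays above the rest. The part of these cells in the values of Map4k1 was not tested.

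Map4k4, which activates the JNK branch, had a signal of 1328 to 1670 on 1 probe set and average log2 changes of -0.10 ± 0.117 and -0.06 ± 0.147 on its 2 tested probe sets (limma adjusted p = 0.691 and 0.856). It was among the members with the least spread, as no pair of replicates differed by more than 1.27-fold.

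**Figure D2:**
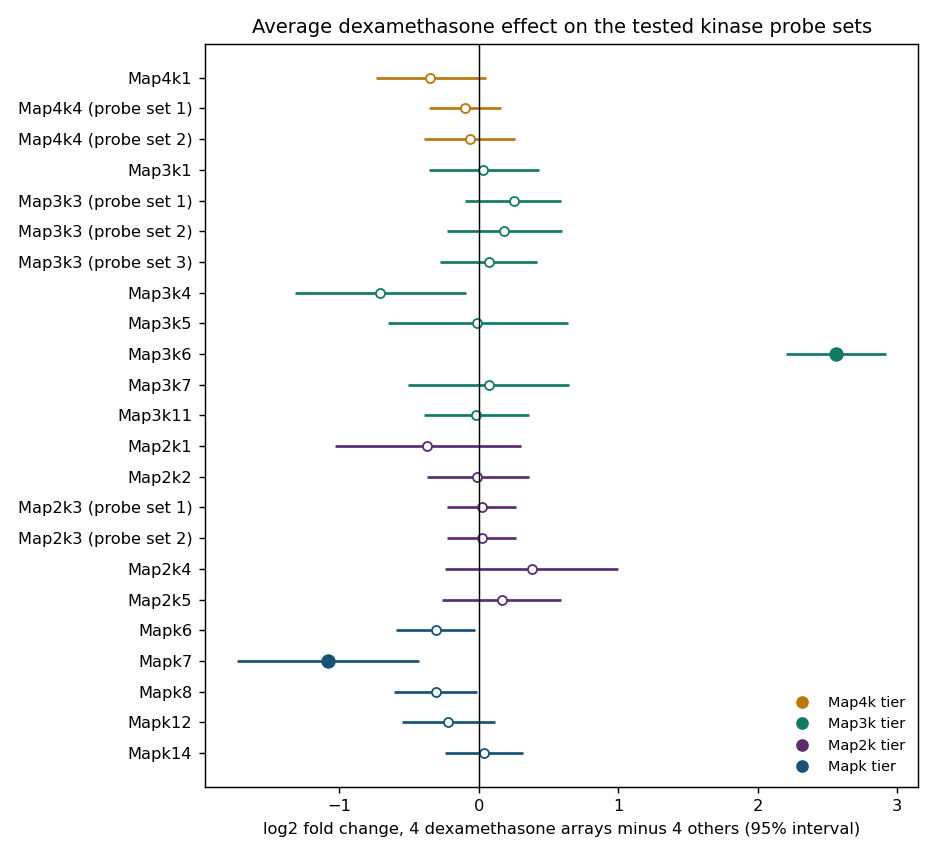
Average log2 fold change with dexamethasone (4 dexamethasone arrays minus 4 others) of the 23 tested kinase probe sets, coloured by tier, with 95% intervals from limma and filled points for adjusted p under 0.05. Map3k6 at 2.56 stands far to the right of all others, Mapk7 at -1.08 is the only called fall, and 18 of the 21 other intervals lie within -1 and 1.

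In the Map2k tier, 5 of 6 genes were tested, with 6 probe sets, and 0 passed in limma in any of the dexamethasone comparisons. Map2k1 and Map2k2, the MEK kinases that activate ERK, had average log2 changes of -0.37 ± 0.302 and -0.01 ± 0.164. Map2k1 had one of the widest replicate gaps, with signals of 1108 and 403 in RA-Dex and 493 and 922 in Dex. Its change was -0.73 without RA-Dex replicate a and -6e-04 without RA-Dex replicate b, so it rests on those arrays. Map2k3, which activates p38, had signals of 2219 to 2809 on 1 probe set and changes of 0.02 ± 0.115 and 0.02 ± 0.113 on its 2 tested probe sets. The 95% interval of either ran from -0.23 to 0.27. Map2k5, which activates Mapk7, had a change of 0.17 ± 0.193, which ran from 0.01 without Dil replicate b to 0.32 without Dil replicate a.

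Map2k4, which activates JNK and p38, had signals of 710 and 610 in Dil, 696 and 681 in Dex, 208 and 614 in RA, and 548 and 609 in RA-Dex. RA replicate a lay far below the 7 other arrays. The average log2 change with dexamethasone was 0.38 ± 0.282 (limma adjusted p = 0.508). It was -0.01 without RA replicate a and 0.77 (adjusted p = 0.0239) without RA replicate b, so its size rests on that array.

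In the Mapk tier, 5 of 8 genes were tested and Mapk7 alone was called. Mapk8, a JNK kinase, had signals of 1096 and 985 in Dil, 788 and 813 in Dex, 935 and 1010 in RA, and 914 and 734 in RA-Dex. All dexamethasone arrays were below the others, by a narrow margin, and the average log2 change of -0.31 ± 0.135 did not pass (limma adjusted p = 0.21). The other Mapk8 probe set was not tested, being at or under the floor of 85.3 on 5 of 8 arrays. With no filter it had the opposite sign, at 0.2. Mapk6, the atypical ERK3, had a change of -0.31 ± 0.127 (adjusted p = 0.178). Mapk14, the p38 alpha kinase, had signals of 2126 to 3101 and a change of 0.04 ± 0.128 (adjusted p = 0.907).

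Mapk12, a p38 kinase known to be abundant in skeletal muscle, had signals of 842 and 858 in Dil, 674 and 773 in Dex, 760 and 795 in RA, and 798 and 572 in RA-Dex. Both Dil arrays were above the 6 others, as were those of the summed skeletal muscle markers, whose part in these values was not tested. Its average log2 change with dexamethasone was -0.22 ± 0.152 (limma adjusted p = 0.472). It was -0.34 without RA-Dex replicate a and -0.10 without RA-Dex replicate b.

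Among the 21 tested members not called, average changes ran from -0.71 to 0.38. The 95% interval lay within -1 and 1 for 18 of them, and 89.4% of all uncalled probe sets had such an interval. Before adjustment, 5 of the 23 members had a p under 0.05, where 21.3% of all tested probe sets did. The largest ratio between replicates of a group had a median of 1.39 over the members and 1.41 over all tested probe sets. It reached 2 or more in 4 members, Map3k4, Map2k1, Map2k4 and Mapk7, of the 23, and in 12.1% of all tested probe sets.

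**Figure D3:**
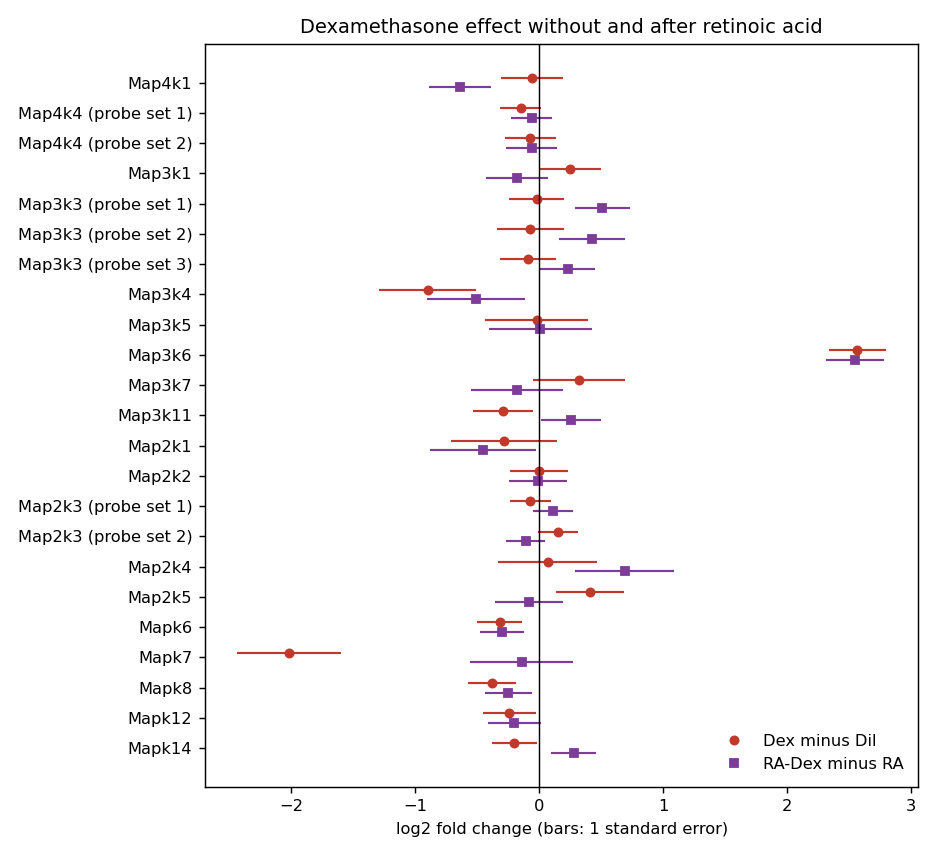
Log2 fold changes of the 23 tested kinase probe sets for Dex minus Dil (circles) and RA-Dex minus RA (squares), with bars of 1 standard error. The values of Map3k6 coincide at 2.57 and 2.55, while those of Mapk7 are -2.02 and -0.14.

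By comparison, Dex against Dil gave 2 calls among the 23 members, Map3k6 and Mapk7, where 3.23% of all tested probe sets were called. RA-Dex against RA gave 1, Map3k6, where 3.5% were called. The median log2 change of the members was -0.07 and -0.06 in these comparisons, and -0.02 and -0.05 over all tested probe sets.

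Retinoic acid gave no called member. In limma, 0 of 23 members passed for its average effect, where 0.15% of all tested probe sets passed. An unadjusted p under 0.05 was seen in 1 member and in 6.29% of all. In RA against Dil 0 passed (0.0274% of all), with 2 members unadjusted (7.99% of all). In RA-Dex against Dex 0 passed (0.0958% of all), with 1 member unadjusted (4.13% of all). For the difference of the dexamethasone effects, again 0 members passed in limma (0.0137% of all), with 1 unadjusted (5.6% of all). The members' median log2 changes were 0.02, -0.07, 0.04 and 0.03 in these comparisons.

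The 18 probe sets that were not tested had signals of at most 283, and 5 of them were at or under the floor of 85.3 on every array. They left 7 genes without a tested probe set: the upstream kinases Map3k2, Map3k8 and Map3k12, the p38 activator Map2k6, the JNK kinases Mapk9 and Mapk10, and the p38 kinase Mapk13. Mapk9 had signals of 140 to 283 and Mapk10 of 121 to 233 on 1 probe set, near the filter. Mapk13 was at 6.8 to 44.8, under the floor throughout.

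Map3k8, the inflammatory kinase Tpl2, was called only when the filter was left out. On 1 of its probe sets the signals were 11.9 and 35.9 in Dil, 96.4 and 39.3 in Dex, 13.5 and 49.1 in RA, and 130 and 130 in RA-Dex. Both RA-Dex arrays were thus above the floor and both RA arrays under it, a ratio of at least 1.52-fold. Since 5 of its 8 arrays were set to the floor, including both of Dil and both of RA, the spread between those replicates was 0 by construction, and its p is not given. The other probe set had a log2 change of -0.19 ± 0.511 in that comparison, the opposite sign, with RA replicate b at 48.9.

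Other genes of the pathway were followed with lists drawn up from general knowledge, with each gene given by its brightest tested probe set. Earlier results of these data were known when the lists were chosen, so their counts only describe the listed genes. Upstream of the cascade, 0 of 12 tested genes of the Ras and Raf tier passed in limma for the average effect of dexamethasone, with 2 at an unadjusted p under 0.05 and a median log2 change of -0.09. Of all tested probe sets, 7.83% passed and 21.3% had an unadjusted p under 0.05. Of 17 tested scaffolds and activators of the stress cascade, 2 rose and 0 fell (median 0.07), where 4.26% of all tested probe sets rose and 3.57% fell. Both were Gadd45 genes, whose products activate the MEKK4 kinase. Gadd45a, of the same family, went the other way, with a log2 change of -0.39 ± 0.171 that did not pass (limma adjusted p = 0.212). An unadjusted p under 0.05 was seen in 5 of these 17 genes.

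Gadd45g had signals of 479 and 421 in Dil, 2113 and 1848 in Dex, 736 and 526 in RA, and 2290 and 1819 in RA-Dex. It rose by a log2 change of 1.93 ± 0.155 (limma adjusted p = 2.91e-05). Gadd45b rose by 1.14 ± 0.146 (adjusted p = 0.000738).

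Downstream, 0 of 4 tested kinases activated by MAP kinases passed in limma, with 1 at an unadjusted p under 0.05 and a median of 0.13. Over all tested probe sets, 7.83% passed and 21.3% had such an unadjusted p. Of 6 tested phosphatases that switch MAP kinases off, 2 rose and 0 fell (median 0.27), where 4.26% of all tested probe sets rose and 3.57% fell. Dusp1, which acts on JNK and p38, had signals of 3779 to 4660 without dexamethasone and 8552 to 10329 with it, a log2 change of 1.17 ± 0.11 (limma adjusted p = 7.83e-05). It was also on the list of genes known to respond to glucocorticoids. Dusp6, which acts on ERK, rose by 0.59 ± 0.0994 (adjusted p = 0.00434).

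Of 18 tested transcription factors that MAP kinases phosphorylate, 3 rose and 2 fell (median -0.07), where 7.83% of all tested probe sets were called, 4.26% as rises and 3.57% as falls. Fos rose by 2.17 ± 0.136, Ets2 by 0.81 ± 0.113 and Jun by 0.72 ± 0.172 (limma adjusted p = 4.74e-06, 0.00129 and 0.0285). Egr1, an immediate early gene like Fos, went the other way, with signals of 468 to 944 without dexamethasone and 248 to 338 with it (-1.22 ± 0.232, adjusted p = 0.00848). Mef2c, a target of the ERK5 and p38 branches that is named here after its value was seen, had a change of -1.30 ± 0.349 (adjusted p = 0.0457), the size of which depends on the floor since Dex replicate a was at 13.7. The calls of Jun, Egr1 and Mef2c were lost with no filter, which left a count of 2, Fos and Ets2. It was 3, with Jun and Mef2c lost, when any of these was left out: Dil replicate b, Dex replicate a, RA replicate b, or replicate a of RA-Dex.

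**Figure D4:**
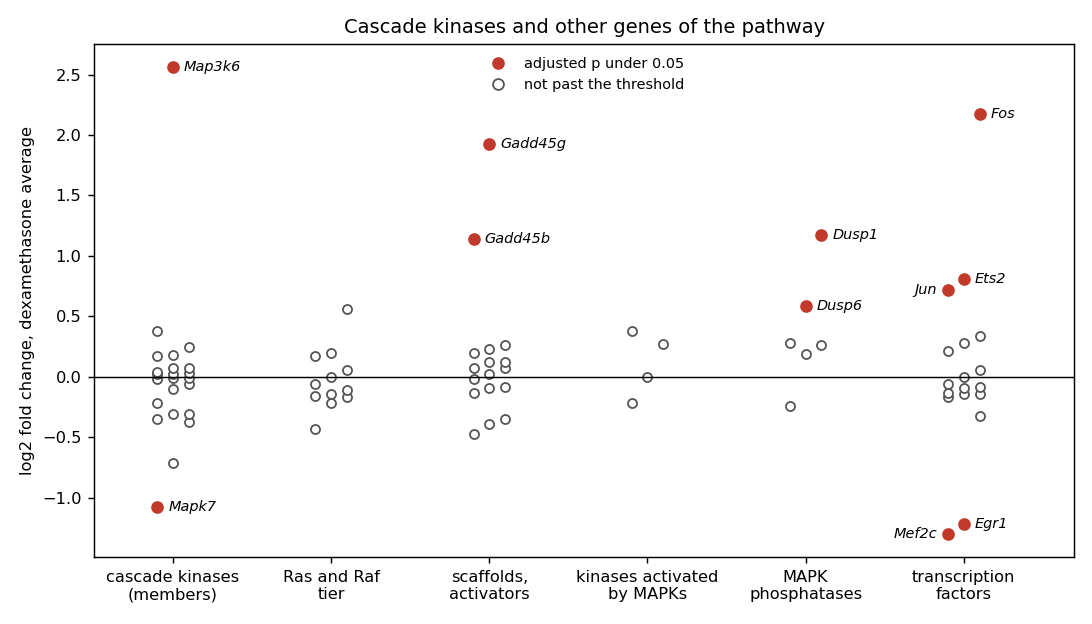
Average log2 fold change with dexamethasone of the 23 tested kinase probe sets and of the tested genes of 5 other pathway lists, 1 point per probe set, filled red where the adjusted p was under 0.05. The red points are Map3k6 and Mapk7 among the kinases, Gadd45g and Gadd45b, Dusp1 and Dusp6, and Fos, Ets2, Jun, Egr1 and Mef2c, and none lies in the Ras and Raf tier or among the kinases activated by MAP kinases.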

How the data were processed

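The deposited table holds a linear intensity for every probe set on every array. The values show that the authors' arrays had been scaled to a common level, with a mean of 800.4 on every array after trimming 2% at each end. Software was not given in the sources used here. Of 12488 probe sets, 66 controls were left out. Signals under 85.3, the pooled 25th percentile, were set to that floor, values were taken as log2, and probe sets with a mean above the pooled 40th percentile (200.8) were tested.

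Symbols came from the array's annotation, updated by Entrez ID. All 41 member probe sets matched, and 0 changed symbol. A model with a mean for each group was fitted to every probe set in limma 3.58.1 (R 4.3.3), with moderated two-sided tests (intensity trend, 4 residual and 6.69 prior degrees of freedom) of 7 contrasts, adjusted by Benjamini-Hochberg. Errors are standard errors. On simulated data for the average dexamethasone effect (7309 probe sets), 65% of log2 changes of 1 and 95% of changes of 2 were recovered. Of the calls made there, 6.98% were false.

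The members and lists were chosen with earlier results of these data known. Given in full were called members, members whose dexamethasone arrays did not overlap the others, the brightest of each tier and a few fixed kinases; from each list, up to 4 called genes by smallest p. The letters a and b gave no clear pairing of the arrays: deviations of same-lettered arrays correlated at -0.22 to 0.14 between groups. The values were 0.14 for Dil with Dex and 0.1 for RA with RA-Dex, and negative for every other pair of groups.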

Additional observations from a re-analysis of the deposited data

How the results depend on the processing

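The alternatives were quantile normalization, no filter, a fit without the intensity trend, a pseudocount instead of the floor, a stricter filter (60th percentile), the replicate letter as a block, leaving out each array in turn, and the mean over a gene's probe sets. The count of called kinase probe sets for the average effect of dexamethasone went from 2 to 1 (Map3k6) with quantile normalization, no trend or the replicate block. It was also 1 with the stricter filter, where Mapk7 was not tested because its mean lay under the limit of 508.5. With 1 array left out it was 1 to 3. With no filter it was 2, Map3k6 and Map3k8, the latter on a probe set mostly at the floor. In Dex against Dil the count went from 2 to 1 with no filter or no trend, and was 1 to 2 with 1 array left out. It was 1 with the stricter filter, Mapk7 again not being tested. In RA-Dex against RA it went from 1 to 2 with no filter and was 1 to 2 with 1 array left out, Map2k4 being added without RA replicate b. It was 0 to 1 in RA against Dil (Map2k4, without RA replicate b) and 0 to 1 in RA-Dex against Dex (Mapk7 at 2.58, adjusted p = 0.0193, without Dex replicate a). The transcription factor list had 5 called genes, and 2 with no filter, 3 with the stricter filter, 3 with no trend and 3 to 4 with 1 array left out. Egr1 and Mef2c were not tested under the stricter filter. Apart from genes that the stricter filter left untested, the cause of these changes was not tested.

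The letters gave no clear pairing, so the replicate block is given here alone. With it the average change of Mapk7 was -1.08 (limma adjusted p = 0.0701), and 454 of 7309 probe sets were called in place of 572.

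The sign turned only for values that had not been called. For the average effect of dexamethasone, quantile normalization gave 0.05 for Map3k5, 0.03 for Map3k11 and 0.03 for Map2k2. With 1 array left out, log2 changes ran from -0.15 to 0.02 for the Map4k4 probe set at -0.06, -0.11 to 0.17 for Map3k1, -0.02 to 0.16 for the Map3k3 probe set at 0.07, -0.23 to 0.21 for Map3k5, -0.04 to 0.19 for Map3k7, -0.09 to 0.05 for Map3k11 and -0.12 to 0.11 for Map2k2. They ran from -0.07 to 0.11 and from -0.04 to 0.08 for the Map2k3 probe sets, -0.01 to 0.77 for Map2k4 and -0.09 to 0.17 for Mapk14. Besides Mapk7, these tested members kept their sign but moved by over 1.5 times under some alternative: Map3k4 (-1.03 to -0.38), Map2k1 (-0.73 to -6e-04), Map2k5 (0.01 to 0.32), Mapk12 (-0.34 to -0.10), the Map4k4 probe set at -0.10 (-0.16 to -0.05) and the Map3k3 probe sets at 0.25 (0.12 to 0.38) and 0.18 (0.01 to 0.36). Mapk7 in RA-Dex against RA ran from -0.30 to 0.02. The difference of effects for Map3k6 ran from -0.33 to 0.27, and was 3e-04 with the pseudocount. With 2 arrays a group, changes near the threshold cannot be settled.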
